A study of Mus musculus with 675 samples.

Results

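The cells described here were aortic smooth muscle cells with a high level of Eln, the gene of tropoelastin, set against smooth muscle cells of the same plates with a low level of it. A cell counted as smooth muscle with at least 1000 CPM (the count of a gene divided by the total of its cell, times 1000000) of Myh11, at least 500 CPM of Cnn1, less than 100 CPM of Cdh5, and fewer than 2 of Dcn, Lum, Serpinf1 and Pi16 at 100 CPM or more. Of the 675 cells of the series, 548 met this, 80.4% of the plate titled aorta_594s, called plate A here, and 82.1% of the plate titled aorta_912s, called plate B. The groups were chosen by Eln CPM within each plate: the 25% of smooth muscle cells with the most Eln formed the Eln-high cells (74 on plate A and 64 on plate B), and the 25% with the least formed the Eln-low cells (74 and 64). The cells between them were split at the plate's Eln median into a lower-middle and an upper-middle band.

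Single cells were sorted into 384-well plates and profiled by Smart-seq2, a method that reads whole transcripts of one cell per well without molecular identifiers. Both groups came from the same material, male C57BL/6 mice, 10 weeks old, labelled aorta with no treatment or altered allele, with the cells of 2 mice pooled on plate A and those of another 2 mice on plate B. The labels' protocol names heart as the dissociated organ, and no source used here gives the sort gate. Plate, mouse pool and replicate are therefore a single factor with 2 levels, and the cells of a plate are not replicates of each other.

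Elastin is secreted by vascular smooth muscle as soluble tropoelastin. It is laid onto a scaffold of fibrillin microfibrils with the help of fibulins and latent TGF-beta binding proteins and is then cross-linked by lysyl oxidases into the elastic lamellae that let large arteries recoil. Most arterial elastin is made around birth and in early life, and the fibres turn over very slowly afterwards; the same cells also make the collagens that limit stretch.

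Eln was present in every smooth muscle cell of both groups, so the groups differ by degree. On plate A the Eln-high cells ran between 3556 and 7720 CPM with a median of 4366, against 114.5 to 1750 CPM with a median of 1297 in Eln-low cells. On plate B the Eln-high cells ran between 2691 and 8353 CPM with a median of 3461, against 60.9 to 1180 CPM with a median of 773 in Eln-low cells. The distribution had no gap at the thresholds. The cell nearest below the Eln-high threshold had 3513 CPM on plate A and 2672 CPM on plate B, and the cell nearest above the Eln-low threshold had 1767 and 1190 CPM. On plate A, 45 cells lay within 10% of the upper threshold, and on plate B, 27. Eln-high cells held 40.1% of the smooth muscle Eln counts on plate A and 42.6% on plate B, against 11.2% and 9.87% in Eln-low cells. These values chose the cells and are given as a description.

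**Figure D1:**
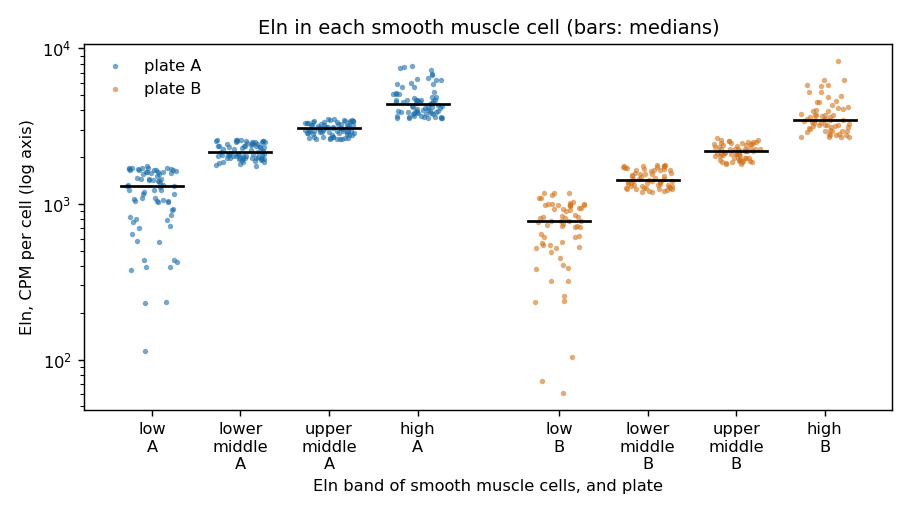
Eln in CPM on a log axis for each of the 548 smooth muscle cells, by Eln band (low to high) and plate; bars mark medians. The medians run between 1297 and 4366 CPM on plate A and between 773 and 3461 CPM on plate B, with no gap between neighbouring bands.

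The label was checked against markers that the rule did not use. The 10 other smooth muscle markers summed to 21249 CPM (plate A) and 19492 CPM (plate B) in Eln-high cells, against 21810 and 19371 CPM in Eln-low cells, with none at 0. The 13 endothelial markers summed to 290.2 and 209.2 CPM in Eln-high cells, against 284.4 and 251.7 CPM in Eln-low cells. The 13 cardiomyocyte markers summed to 57.1 and 106.1 CPM in Eln-high cells, against 101.2 and 69.4 CPM in Eln-low cells, with opposite directions on the plates. The 13 macrophage and leukocyte markers summed to 14.4 and 6.64 CPM in Eln-high cells, against 49.5 and 5.25 CPM in Eln-low cells, and Adgre1, C1qa, Tyrobp, Cd3e and Cd79a were at 0 in both Eln-high sums. Of the rule's own genes, summed over cells, Myh11, the smooth muscle myosin heavy chain, stood at 4167 CPM (plate A) and 3556 CPM (plate B) in Eln-high cells, against 4216 and 3170 CPM in Eln-low cells. Cnn1, calponin, stood at 2281 and 2401 CPM in Eln-high cells, against 2172 and 2411 CPM in Eln-low cells. Cdh5, an endothelial cadherin, was below 1 CPM in all 4 sums. The median cell had 280458 and 331334 counts in Eln-high cells, against 300837 and 327618 in Eln-low cells, with opposite directions on the plates. The 8 sums of plate and band held 19279177 to 22625094 counts. The Eln-high sum was the smallest of each plate, with 20912340 and 19279177 counts against 22562831 and 21533901 in the Eln-low sums. The median cell showed 5360 and 6210 genes in Eln-high cells, against 5262 and 6062 in Eln-low cells. Across smooth muscle cells, Spearman's rho of Eln CPM with the cell's total was -0.109 on plate A and -0.0652 on plate B.

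The transcript that followed Eln most closely overlaps it. Gm30003 (ENSMUSG00000107318), annotated as an antisense transcript at chr5:134747042-134822967 on the plus strand, overlaps the start of Eln (ENSMUSG00000029675), at chr5:134702593-134747323 on the minus strand of GRCm38. Another RefSeq start window of Gm30003 (GRCm38.p6, chr5:134745462-134745761, plus strand) lies within annotated Eln, before the annotated start of Gm30003, and is not printed. The RefSeq start window at chr5:134746975-134747274 (plus strand) is printed because it shows the overlap. Its capitals are the bases that lie in both annotated genes.
Gm30003: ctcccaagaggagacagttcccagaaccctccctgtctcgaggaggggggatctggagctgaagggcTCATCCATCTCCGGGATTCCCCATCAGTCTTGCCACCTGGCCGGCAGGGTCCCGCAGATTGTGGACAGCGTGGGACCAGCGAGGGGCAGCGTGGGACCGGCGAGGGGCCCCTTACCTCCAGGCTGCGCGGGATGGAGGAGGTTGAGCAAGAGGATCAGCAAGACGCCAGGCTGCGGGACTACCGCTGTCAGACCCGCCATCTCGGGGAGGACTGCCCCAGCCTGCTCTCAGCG

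Gm30003 stood at 70.01 and 73.8 CPM in Eln-high cells, against 10.2 and 21.04 CPM in Eln-low cells. Its rho with Eln was 0.64 on plate A and 0.59 on plate B. Its counts came to 1.31% and 2.29% of the Eln counts of the smooth muscle cells. The counting is not stated to use strand, so reads of Eln and of Gm30003 cannot be told apart where the annotated genes overlap. That overlap is limited to the start of Eln, and reads outside it differ by position. The share of the Gm30003 counts that came from the overlap cannot be read from counts per gene. Gm30003 is still included in the counts of called genes and of genes most like Eln below, where it may not be independent of Eln.

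No gene other than those of the rule passed an adjusted p of 0.05 between Eln-high and Eln-low cells in the planned test, edgeR's quasi-likelihood test on sums per plate and band (0 of 16113 genes, 0.0%, with Benjamini-Hochberg adjustment). At an unadjusted p under 0.05, 638 genes were higher in Eln-high cells (3.96%) and 432 lower (2.68%). DESeq2 on the same sums called 0.757% of the genes higher and 0.36% (58 genes) lower. These calls included extreme log2 fold changes, such as 21.77 for Trim66, 18.41 for Gpr45 and -9.23 for Gca, so their number is to be read with caution. The lowest adjusted p of the planned test, 0.0697, was shared by Col1a1, Col3a1 and Sparc. When the test was limited to the 4015 genes with a count in at least 50% of the smooth muscle cells of each plate, a choice made after the data were seen, edgeR called 25 genes higher (0.623%) and 3 lower (0.0747%). All 28 were among the 180 genes that DESeq2 called, but both tests used the same sums and are not independent. Of the 28, 19 belong to the 7 lists of elastic fibre, collagen and other matrix genes. These lists held 10, 7, 12, 19, 10, 9 and 16 of the 4015 genes. They were chosen with earlier results of these data known. The counts below are given over all genes tested, and calls of the narrower test are named as such. List counts at an unadjusted p under 0.05 are to be read beside the 3.96% higher and 2.68% lower of all genes.

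The fibrillar collagens Col1a1 and Col3a1 were among the 3 genes with the lowest adjusted p. Col1a1, a chain of type I collagen, stood at 1323 CPM on plate A and 1279 CPM on plate B in Eln-high cells, against 867 and 761 CPM in Eln-low cells (log2 fold change 0.71 ± 0.06 SE, edgeR adjusted p = 0.0697). Col1a2, the other chain, stood at 1855 and 1893 CPM in Eln-high cells, against 1288 and 1054 CPM in Eln-low cells (0.72 ± 0.08). Col3a1, the type III chain, stood at 1543 and 1234 CPM in Eln-high cells, against 1039 and 755 CPM in Eln-low cells (0.67 ± 0.06). All 3 genes were higher in Eln-high cells of both plates, as were 24.2% of the 4015 genes. All 3 passed edgeR's test over the 4015 genes, with adjusted p = 0.00226 for Col1a1 and Col3a1 and 0.00302 for Col1a2; over the alternatives tried the adjusted p of these genes reached 1.0. Serpinh1, the collagen chaperone HSP47, stood at 548 and 503 CPM in Eln-high cells, against 397 and 330.5 CPM in Eln-low cells (0.56 ± 0.08), and passed that narrower test too.

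The differences of Col1a2 and Col3a1 were graded over the bands. Some other genes changed sign between the middle bands, as given in the last section. Col1a2 read 1288, 1573, 1711 and 1855 CPM over the 4 bands of plate A, low to high Eln, and 1054, 1417, 1677 and 1893 CPM over those of plate B. Col3a1 read 1039, 1209, 1397 and 1543 CPM on plate A, and 755, 919, 998 and 1234 CPM on plate B. Both genes thus stepped up at every band of both plates. The share of all genes that did so was not counted. The upper-middle against the lower-middle band is a contrast of cells that are in neither group, although Eln orders them as well. There Col1a1 differed by 0.30 on the log2 scale (edgeR unadjusted p = 0.00238), Col1a2 by 0.19 (unadjusted p = 0.0461) and Col3a1 by 0.17 (unadjusted p = 0.0223).

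**Figure D2:**
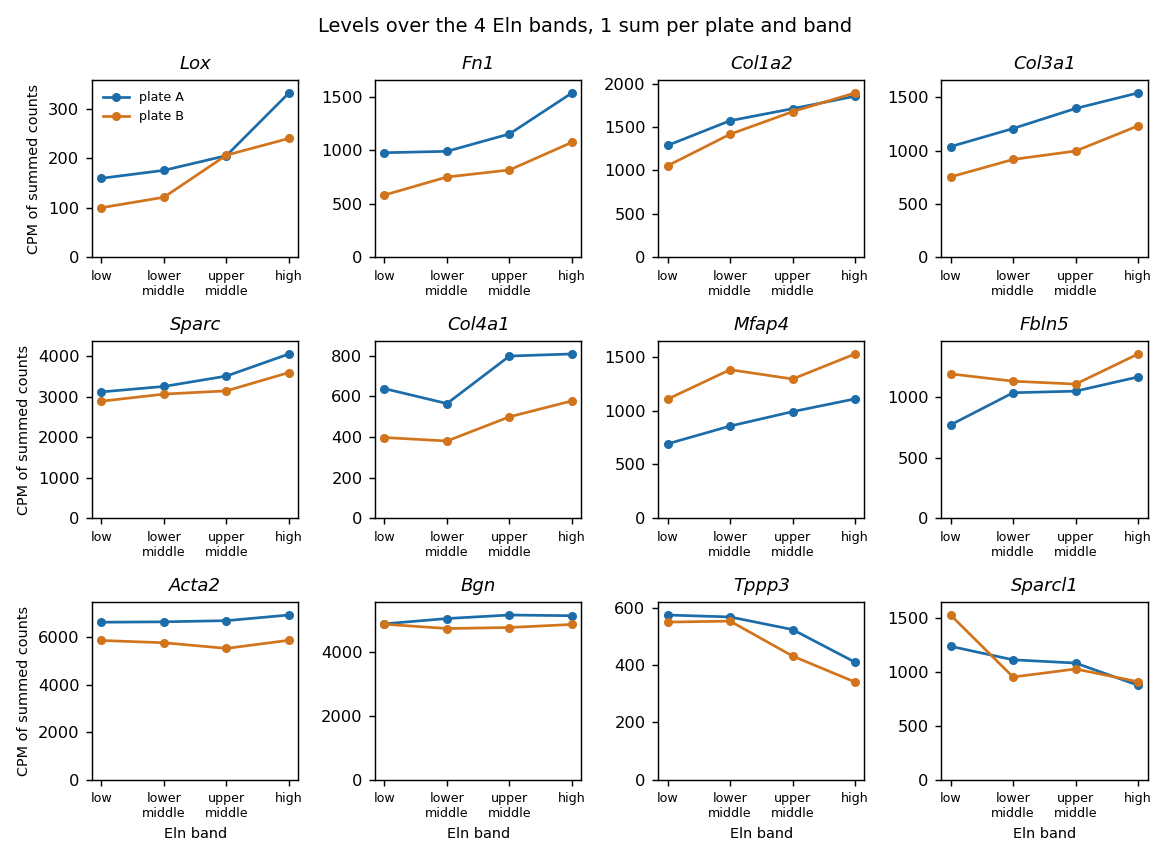
CPM of summed counts of 12 genes over the 4 Eln bands, low to high, with 1 point per plate and band and axes that start at 0. Col1a2 climbs between 1288 and 1855 CPM on plate A, Acta2 stays between 6628 and 6932 CPM there, and Tppp3 is lowest in the Eln-high band of both plates.

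Over the list of fibrillar collagens and their processing enzymes, 9 of 23 genes tested were higher and 0 lower at an unadjusted p under 0.05, with a median log2 fold change of 0.36 beside 0.01 over all genes. Among the 19 members detected in at least 50% of the cells, 13 were higher in Eln-high cells of both plates and 0 lower in both, beside 24.2% and 33.1% of all such genes. Between the upper-middle and lower-middle bands, 11 of these 19 were higher and 1 lower in both plates, beside 25.1% and 25.8% of all such genes.

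Of the other collagens, 8 of 15 members were higher and 1 lower at an unadjusted p under 0.05, with a median of 0.42. Col4a1 and Col4a2 are the paired chains of basement membrane collagen. Col4a1 read 638, 564, 798 and 808 CPM over the 4 bands of plate A and 398, 380, 499 and 577 CPM over those of plate B, so on both plates its largest step lay between the middle bands (log2 fold change between those 0.46, edgeR unadjusted p = 0.000735). Col4a2 stood at 705 and 711 CPM in Eln-high cells, against 503 and 342.8 CPM in Eln-low cells (0.79 ± 0.14). Its middle bands, lower to upper, read 519 and 672 CPM on plate A and 522 and 602 CPM on plate B (0.29, unadjusted p = 0.0745). These 2 genes overlap head to head in the annotation, so reads at their starts are uncertain between them. Col6a1 stood at 648 and 475 CPM in Eln-high cells, against 431 and 323.7 CPM in Eln-low cells (0.60 ± 0.08). Between the middle bands Col6a1 went the other way (-0.10). Its partner Col6a2, of the beaded-filament collagen VI, stood at 895 and 917 CPM in Eln-high cells, against 595 and 608 CPM in Eln-low cells (0.62 ± 0.08). Col18a1, whose product carries endostatin, differed least of these 5 genes, with 1877 and 1676 CPM in Eln-high cells against 1522 and 1255 CPM in Eln-low cells (0.39 ± 0.06). All 5 passed edgeR's test over the 4015 genes.

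RefSeq start windows (GRCm38.p6, 250 bases before and 50 after the start) were matched for 7 of the 10 genes most like Eln across cells, named further on. Those of Col1a2 (chr6:4505368-4505667, plus strand), Col3a1 (chr1:45311288-45311587, plus strand) and Sparc (chr11:55420031-55420330, minus strand) are shown as 3 secreted matrix genes among those most like Eln, a choice made after the values were seen. That of Col4a2 (chr8:11312555-11312854, plus strand) is shown for its shared start region: the annotated start of Col4a1 lies 21 bases away on the other strand. Capitals mark CCAAT and CAGACA, searched on both strands; these words do not overlap each other here.
Col1a2: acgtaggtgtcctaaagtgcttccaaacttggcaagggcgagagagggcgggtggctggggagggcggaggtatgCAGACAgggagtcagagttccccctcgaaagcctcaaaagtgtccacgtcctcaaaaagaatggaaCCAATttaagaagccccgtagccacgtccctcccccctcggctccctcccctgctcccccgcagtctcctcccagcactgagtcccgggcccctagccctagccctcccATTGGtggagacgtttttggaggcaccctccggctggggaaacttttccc
Col3a1: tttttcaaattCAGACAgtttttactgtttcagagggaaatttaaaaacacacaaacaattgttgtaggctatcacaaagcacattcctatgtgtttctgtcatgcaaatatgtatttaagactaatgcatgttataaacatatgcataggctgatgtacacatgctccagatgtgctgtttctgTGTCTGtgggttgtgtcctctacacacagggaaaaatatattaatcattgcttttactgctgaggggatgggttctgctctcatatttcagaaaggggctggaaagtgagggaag
Sparc: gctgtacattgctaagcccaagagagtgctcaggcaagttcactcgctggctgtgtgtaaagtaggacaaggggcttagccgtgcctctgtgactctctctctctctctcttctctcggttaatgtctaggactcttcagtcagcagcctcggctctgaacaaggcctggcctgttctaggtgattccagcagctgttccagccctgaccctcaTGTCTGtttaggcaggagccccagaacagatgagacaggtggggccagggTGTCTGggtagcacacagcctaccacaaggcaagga
Col4a2: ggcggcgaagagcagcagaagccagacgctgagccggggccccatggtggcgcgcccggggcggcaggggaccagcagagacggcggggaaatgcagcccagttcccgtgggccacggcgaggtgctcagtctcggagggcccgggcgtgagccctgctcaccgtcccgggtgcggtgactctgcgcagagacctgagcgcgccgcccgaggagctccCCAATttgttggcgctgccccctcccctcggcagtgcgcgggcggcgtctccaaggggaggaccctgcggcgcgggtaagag

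CCAAT, the letters of the CCAAT box, occurred in a window of 1 of the 7 matched genes, beside 37.4% of all 32851 windows. CAGACA, which holds the core letters of a Smad binding element, occurred in a window of 4 of the 7, beside 21.0% of all windows. These are matches of letters only.

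Lysyl oxidase had the largest fold difference of the elastic fibre genes above 10 CPM, as a mean of the 8 sums, that had an unadjusted p under 0.05. Lox, the copper enzyme that cross-links elastin and collagen, stood at 332.5 CPM (plate A) and 240.5 CPM (plate B) in Eln-high cells, against 159.9 and 100 CPM in Eln-low cells (log2 fold change 1.18 ± 0.18, edgeR adjusted p = 0.334, and 0.0147 over the 4015 genes). The difference also showed in single cells. The median Eln-high cell had 266.5 CPM of Lox on plate A and 218.4 CPM on plate B, against 71.9 and 37.9 CPM in the median Eln-low cell, with ranges of 0 to 1079 and 0 to 789 CPM in Eln-high cells and 0 to 761 and 0 to 827 CPM in Eln-low cells. With each cell thinned to 50000 counts, Lox was seen in 89.2% and 84.4% of Eln-high cells, against 63.5% and 60.9% of Eln-low cells. Single cells of the groups thus overlapped widely. The Lox sums were higher in Eln-high cells of both plates, as for 24.2% of the 4015 genes.

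**Figure D3:**
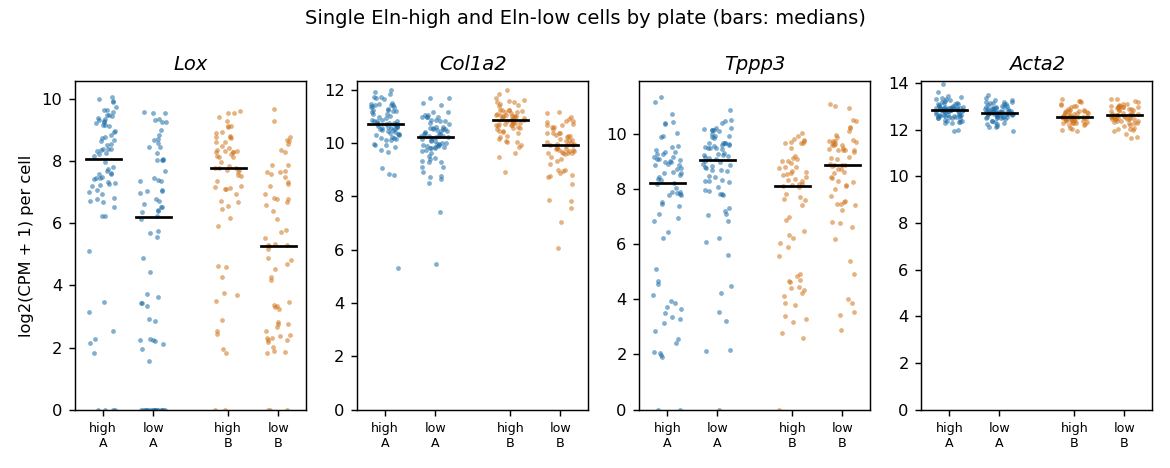
Lox, Col1a2, Tppp3 and Acta2 in log2(CPM + 1) for each Eln-high and Eln-low cell of plates A and B; bars mark medians. The Lox median is 266.5 and 218.4 CPM in Eln-high cells against 71.9 and 37.9 CPM in Eln-low cells, while Acta2 overlaps almost fully.

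Of the other lysyl oxidases above 10 CPM, Loxl1 and Loxl3 were higher by less than Lox. Loxl1, which acts on elastin in adult tissue, stood at 629 and 706 CPM in Eln-high cells, against 564 and 420 CPM in Eln-low cells (0.48 ± 0.14, unadjusted p = 0.014 in edgeR). Loxl3 stood at 101.6 and 140.2 CPM in Eln-high cells, against 81.6 and 86.7 CPM in Eln-low cells (0.53 ± 0.17, unadjusted p = 0.0192). Bmp1, the protease that activates Lox, stood at 75.6 and 76.4 CPM in Eln-high cells, against 78.5 and 57.2 CPM in Eln-low cells, so the plates differed in direction. Pcolce2, an enhancer of procollagen cleavage, stood at 101.04 and 118.3 CPM in Eln-high cells, against 105.9 and 60.7 CPM in Eln-low cells. The other 4 members above 10 CPM, copper carriers among them, lay between -0.21 and 0.32 with none at an unadjusted p under 0.05. In all, 4 of 11 tested members of the lysyl oxidase and copper list were higher and 0 lower at an unadjusted p under 0.05, 1 of them below 10 CPM, and the median was 0.32.

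Microfibril genes were higher as well. Mfap4, a microfibril-associated glycoprotein that binds tropoelastin, stood at 1108 and 1524 CPM in Eln-high cells, against 691 and 1105 CPM in Eln-low cells (0.60 ± 0.09, edgeR adjusted p = 0.013 over the 4015 genes). Mfap5, another microfibril protein, stood at 510 and 672 CPM in Eln-high cells, against 322.3 and 385 CPM in Eln-low cells (0.76 ± 0.15, adjusted p = 0.0346 there). Mfap5 is also on the fibroblast marker list used below. Fbn1, the main fibrillin, stood at 345.3 and 455 CPM in Eln-high cells, against 291.3 and 275.2 CPM in Eln-low cells (0.52 ± 0.14, unadjusted p = 0.00879). Between the middle bands Fbn1 differed by 0.47 (unadjusted p = 0.0143), Mfap4 by 0.07 (unadjusted p = 0.451) and Mfap5 by 0.05 (unadjusted p = 0.743). Mfap2 stood at 33.5 and 51.4 CPM in Eln-high cells, against 21.6 and 39.98 CPM in Eln-low cells, with an unadjusted p of 0.28.

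Of the fibulins above 10 CPM, which help to assemble the fibre, Fbln5 alone had an unadjusted p under 0.05. Fbln5, which links tropoelastin to cells and microfibrils, stood at 1164 and 1353 CPM in Eln-high cells, against 770 and 1189 CPM in Eln-low cells (0.41 ± 0.13, unadjusted p = 0.0175). Efemp2, the fibulin that recruits Lox to elastin, stood at 233.5 and 241.5 CPM in Eln-high cells, against 228.5 and 324.4 CPM in Eln-low cells (-0.17 ± 0.14, unadjusted p = 0.266). The other fibulins above 10 CPM were Fbln1 at 0.50, Fbln2 at 0.44 and Fbln7 at 0.98 on the log2 scale, with unadjusted p of 0.45, 0.795 and 0.508 in edgeR. The step of Fbln5 between the middle bands was 0.00, so its difference lay in the outer bands. Emilin1, an elastin-associated glycoprotein, stood at 196.01 and 255.5 CPM in Eln-high cells, against 191.7 and 162.6 CPM in Eln-low cells (0.37 ± 0.17, unadjusted p = 0.0725).

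Of the latent TGF-beta binding proteins, which tie the growth factor to microfibrils, Ltbp1 and Ltbp3 were higher at an unadjusted p under 0.05, and Ltbp2 and Ltbp4 were not. Ltbp1 stood at 1260 and 1870 CPM in Eln-high cells, against 1180 and 1582 CPM in Eln-low cells (0.20 ± 0.06, unadjusted p = 0.0142). Ltbp3 stood at 479 and 277.2 CPM in Eln-high cells, against 418 and 199.5 CPM in Eln-low cells (0.37 ± 0.11, unadjusted p = 0.0148). Ltbp4 stood at 846 and 954 CPM in Eln-high cells, against 935 and 700 CPM in Eln-low cells, with opposite directions on the plates. Ltbp2 stood at 84.7 and 86.1 CPM in Eln-high cells, against 73.2 and 30.8 CPM in Eln-low cells (0.81 ± 0.38, unadjusted p = 0.0743). Of 22 tested members of the elastic fibre and microfibril list, 8 were higher and 0 lower at an unadjusted p under 0.05, 2 of the 8 below 10 CPM. The list's median was 0.51, 14 members were higher in both plates and 0 lower in both, beside 24.6% and 26.7% of all 16113 genes. Its 7 members above 10 CPM whose levels are not given lay between -0.17 and 0.98. Between the middle bands the median of the 10 members found in at least 50% of the cells was only 0.06, beside 0.39 between Eln-high and Eln-low cells. That median was 0.22 on plate A alone and 0.45 on plate B alone; for the lysyl oxidase list these were 0.16 and 0.69.

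**Figure D4:**
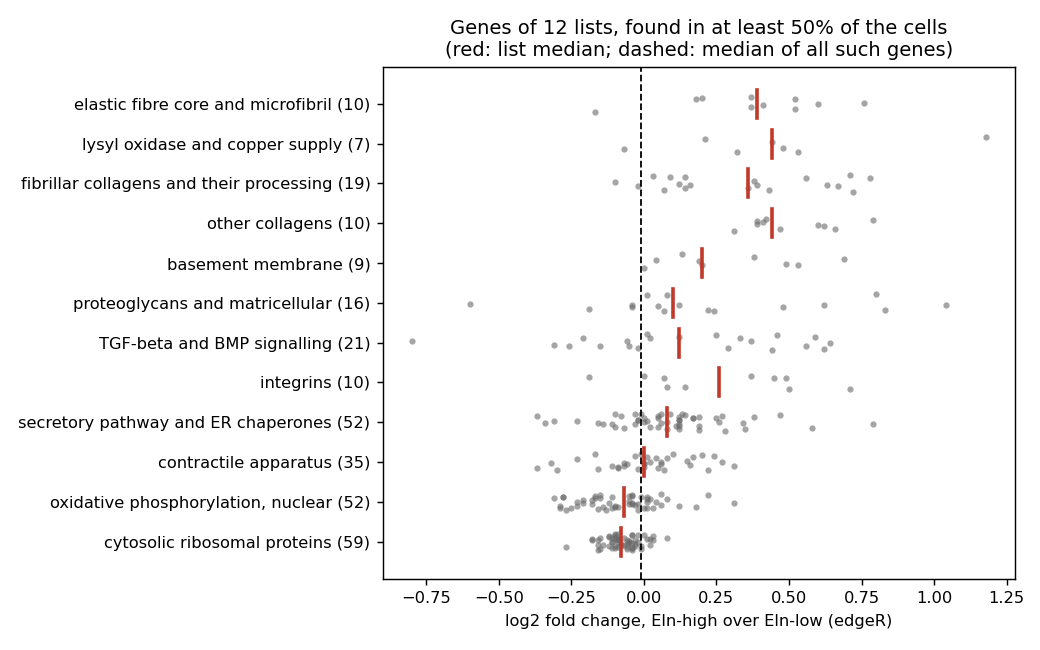
Log2 fold change of Eln-high over Eln-low cells for each gene of 12 lists found in at least 50% of the smooth muscle cells, with the number of genes in brackets; red bars mark list medians and the dashed line the median of all such genes, -0.01. The elastic fibre (0.39), lysyl oxidase (0.44), fibrillar collagen (0.36) and other collagen (0.44) medians lie to the right, and the contractile median lies at 0.00.

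Glycoproteins of the matrix were mixed. Fn1, fibronectin, stood at 1536 and 1075 CPM in Eln-high cells, against 977 and 582 CPM in Eln-low cells (0.80 ± 0.08, edgeR adjusted p = 0.141, and 0.00302 over the 4015 genes). Sparc, a collagen-binding calcium protein, stood at 4056 and 3598 CPM in Eln-high cells, against 3120 and 2891 CPM in Eln-low cells (0.38 ± 0.03, adjusted p = 0.0697). Its relative Sparcl1 went the other way, with 873 and 906 CPM in Eln-high cells against 1234 and 1524 CPM in Eln-low cells (-0.60 ± 0.12, adjusted p = 0.0346 over the 4015 genes in edgeR). Ccn2, connective tissue growth factor, stood at 809 and 804 CPM in Eln-high cells, against 547 and 524 CPM in Eln-low cells (0.62 ± 0.10). Tnc, tenascin C, stood at 184.01 and 80.2 CPM in Eln-high cells, against 98.3 and 22.3 CPM in Eln-low cells (1.35 ± 0.32). Crispld2, a secreted glycoprotein, stood at 490 and 423 CPM in Eln-high cells, against 291.7 and 232.98 CPM in Eln-low cells (0.83 ± 0.16). In each of these 6 genes the groups differed in the same direction on both plates. Of all 16113 genes, 24.6% were higher and 26.7% lower in both plates. Bgn, biglycan, stood at 5140 and 4866 CPM in Eln-high cells, against 4885 and 4874 CPM in Eln-low cells (0.07 ± 0.04). Igfbp7, an IGF-binding protein, stood at 3517 and 3070 CPM in Eln-high cells, against 3238 and 2962 CPM in Eln-low cells (0.12 ± 0.04). Of 36 proteoglycan and matricellular genes tested, 10 were higher and 2 lower at an unadjusted p under 0.05, with a median of 0.20.

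Basement membrane genes other than collagens were higher in 4 of 16 cases and lower in 0 at an unadjusted p under 0.05. Hspg2, perlecan, stood at 509 and 728 CPM in Eln-high cells, against 369 and 501 CPM in Eln-low cells (0.53 ± 0.08), and passed edgeR's test over the 4015 genes. Npnt, nephronectin, stood at 1219 and 1058 CPM in Eln-high cells, against 1299 and 870 CPM in Eln-low cells, with opposite directions on the plates. Of the protease inhibitors, Timp2 stood at 757 and 616 CPM in Eln-high cells, against 572 and 431 CPM in Eln-low cells (0.49 ± 0.07). Timp3 stood at 1506 and 1541 CPM in Eln-high cells, against 1448 and 1253 CPM in Eln-low cells (0.21 ± 0.07, unadjusted p = 0.0189). Cst3, cystatin C, an inhibitor of cathepsins that cut elastin, stood at 1435 and 1520 CPM in Eln-high cells, against 1576 and 1640 CPM in Eln-low cells (-0.09 ± 0.04). Of the elastin breakdown and receptor list, 6 of 22 genes were higher and 0 lower at an unadjusted p under 0.05, with a median of 0.09.

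Growth factor signalling genes went both ways. Of 40 TGF-beta and BMP genes tested, 8 were higher and 3 lower at an unadjusted p under 0.05, with a median of 0.29. Pmepa1, a TGF-beta target that dampens Smad signalling, stood at 513 and 312.6 CPM in Eln-high cells, against 364.7 and 203.8 CPM in Eln-low cells (0.59 ± 0.10). Fstl1, a secreted follistatin-like protein, stood at 1722 and 1507 CPM in Eln-high cells, against 1303 and 1091 CPM in Eln-low cells (0.46 ± 0.08). Id3, a BMP target, was lower, at 660 and 567 CPM in Eln-high cells against 724 and 721 CPM in Eln-low cells (-0.21 ± 0.07, unadjusted p = 0.027). Acvrl1, the receptor ALK1, stood at 64.6 and 66.96 CPM in Eln-high cells, against 18.8 and 19.7 CPM in Eln-low cells (1.80 ± 0.24), but 1 cell held 24.3% of its counts in the Eln-high sum of plate A. Sfrp2, a Wnt-binding protein, stood at 431 and 784 CPM in Eln-high cells, against 255.2 and 384 CPM in Eln-low cells (0.93 ± 0.13). Htra3, a serine protease, stood at 500 and 588 CPM in Eln-high cells, against 345.7 and 457 CPM in Eln-low cells (0.48 ± 0.08). Pmepa1, Fstl1, Sfrp2 and Htra3 passed edgeR's test over the 4015 genes.

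Genes that join cells to the matrix were partly higher. Tns1, a tensin that links integrins to actin, stood at 2029 and 1531 CPM in Eln-high cells, against 1630 and 1010 CPM in Eln-low cells (0.49 ± 0.08). Itgb5, an integrin chain that pairs with the alpha v chain, stood at 591 and 404 CPM in Eln-high cells, against 464 and 287.8 CPM in Eln-low cells (0.45 ± 0.08). Itga9 stood at 586 and 475 CPM in Eln-high cells, against 447 and 328.97 CPM in Eln-low cells (0.49 ± 0.10). Of 15 integrin genes tested, 4 were higher and 0 lower at an unadjusted p under 0.05, with a median of 0.14. Of all genes, 3.96% were higher and 2.68% lower at that threshold.

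The contractile apparatus showed no shift of its median. Of 38 contractile genes tested, 3 were higher and 3 lower at an unadjusted p under 0.05, and the median was 0.00. Of all genes, 3.96% were higher and 2.68% lower at that threshold. Acta2, smooth muscle actin, stood at 6932 and 5868 CPM in Eln-high cells, against 6628 and 5859 CPM in Eln-low cells (0.06 ± 0.03, unadjusted p = 0.076). Susd5, on this list from earlier work on these data, stood at 739 and 798 CPM in Eln-high cells, against 1003 and 950 CPM in Eln-low cells (-0.32 ± 0.09). Pln, phospholamban, is among the smooth muscle markers above but not on the contractile list. It was low beside the other genes of this paragraph, at 3.68 and 13.8 CPM in Eln-high cells against 29.3 and 65.5 CPM in Eln-low cells (-2.49 ± 0.56, edgeR unadjusted p = 0.00342). Of the regulators, Fhl1 stood at 2341 and 2415 CPM in Eln-high cells, against 2107 and 2294 CPM in Eln-low cells. Csrp2, a LIM-domain partner of SRF, stood at 1470 and 1732 CPM in Eln-high cells, against 1663 and 1715 CPM in Eln-low cells. The regulator list had 1 of 24 genes higher and 0 lower at an unadjusted p under 0.05, near the share of all genes.

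The 3 lower genes that passed the narrower test were Sparcl1, given above, Tppp3 and Chmp2b. Tppp3, a tubulin-binding protein, stood at 410 and 340.6 CPM in Eln-high cells, against 575 and 550 CPM in Eln-low cells (-0.56 ± 0.09, edgeR adjusted p = 0.0343 over the 4015 genes). Per cell, the median of Tppp3 was 291.9 and 272.8 CPM in Eln-high cells, against 521 and 465 CPM in Eln-low cells. Chmp2b, a subunit of the ESCRT-III membrane complex, stood at 62.4 CPM on both plates in Eln-high cells, against 133.8 and 129.9 CPM in Eln-low cells (-1.05 ± 0.17). Hspb8, a small heat shock protein, stood at 260.9 and 266.4 CPM in Eln-high cells, against 388 and 431 CPM in Eln-low cells (-0.60 ± 0.15). Tcap, known from the striated muscle Z-disc, stood at 404 and 819 CPM in Eln-high cells, against 726 and 1075 CPM in Eln-low cells (-0.57 ± 0.16). Its plates differed in level, and the groups were apart within each. Ramp1, a subunit of the CGRP receptor, stood at 523 and 555 CPM in Eln-high cells, against 637 and 689 CPM in Eln-low cells (-0.27 ± 0.07, unadjusted p = 0.00673). The DESeq2 adjusted p was 0.000121 for Tppp3, 0.000263 for Chmp2b, 0.00764 for Hspb8 and 0.00504 for Tcap, with Ramp1 at 0.135. Of 9 cardiomyocyte markers tested, 0 were higher and 1 lower at an unadjusted p under 0.05 in edgeR, with a median of -0.69.

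Most ribosomal protein genes lay slightly lower in Eln-high cells, by differences that seldom passed even the unadjusted test. Of 59 cytosolic ribosomal protein genes, 50 were lower in Eln-high cells of both plates and 0 higher in both, beside 33.1% lower and 24.2% higher of all genes found in at least 50% of the cells, with a median of -0.08 and a range of -0.27 to 0.08. Rps3 stood at 837 and 913 CPM in Eln-high cells, against 913 and 1080 CPM in Eln-low cells (-0.15 ± 0.06). Only 2 of the 59 had an unadjusted p under 0.05, and between the middle bands 15 were lower and 13 higher in both plates, beside 25.8% and 25.1% of all such genes. Of 52 nuclear genes of oxidative phosphorylation found in at least 50% of the cells, 33 were lower and 4 higher in both plates, again beside 33.1% and 24.2% of all such genes. Of 58 secretory pathway genes, which serve protein export, 5 were higher and 0 lower at an unadjusted p under 0.05. Their median was 0.07, and 3.96% of all genes were higher and 2.68% lower at that threshold. The share of mitochondrially encoded counts was alike, with cell medians of 1.96% and 1.82% in Eln-high cells, against 1.95% and 1.72% in Eln-low cells.

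**Figure D5:**
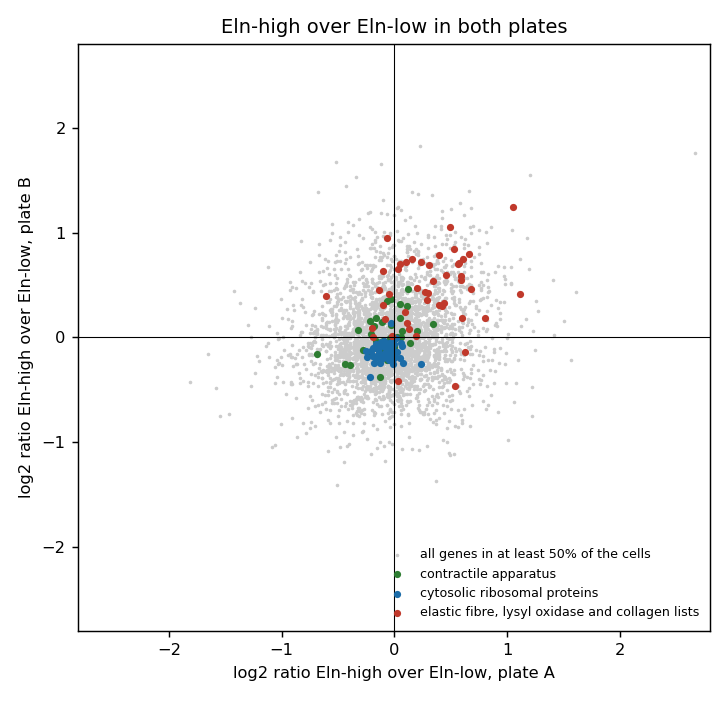
Log2 ratio of Eln-high over Eln-low sums (1 CPM added) on plate A (x axis) and plate B (y axis) for the 4015 genes found in at least 50% of the cells. Most points of the elastic fibre, lysyl oxidase and collagen lists lie in the upper right, and ribosomal protein genes lie in a tight group at or just below 0 on both plates.

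Across all smooth muscle cells, the genes most like Eln were largely the same matrix genes. Likeness was Spearman's rho of CPM over the 548 smooth muscle cells, plate by plate, ranked by the smaller of both values among the 4015 genes. These cells share a plate, a library preparation and similar depth, and the values are a description. The cells include the Eln-high and Eln-low cells and are ranked by the Eln values that formed the bands. The ranking is therefore not independent of the comparison above. After Gm30003 came Col1a2 (0.31 and 0.52), Sparc (0.36 and 0.30), Lox (0.30 and 0.34), Col1a1 (0.29 and 0.37), Col6a2 (0.25 and 0.27), Fstl1 (0.24 and 0.27), Col3a1 (0.24 and 0.34), Fn1 (0.23 and 0.24) and Serpinh1 (0.21 and 0.29). For comparison, 98% of genes lay between -0.16 and 0.17 on plate A and between -0.22 and 0.22 on plate B. With cells thinned to 50000 counts, Col1a2 had 0.30 and 0.48 and Lox 0.28 and 0.32. The lowest were Tppp3 (-0.19 and -0.25), Tcap (-0.19 and -0.18), Hspb8 (-0.18 and -0.18), Gstp1 (-0.17 and -0.24) and Efhd1 (-0.20 and -0.17). Gstp1, a glutathione transferase, stood at 204.7 and 216.5 CPM in Eln-high cells, against 248.2 and 261.6 CPM in Eln-low cells. Efhd1, a calcium-binding mitochondrial protein, stood at 567 and 491 CPM in Eln-high cells, against 759 and 625 CPM in Eln-low cells.

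Collagen genes are also fibroblast genes, so fibroblast markers were read beside them. The 13 markers summed to 1842 and 1855 CPM in Eln-high cells, against 1282 and 1377 CPM in Eln-low cells. Most of that sum was Gsn, with 1142 and 1056 CPM in Eln-high cells against 828 and 887 CPM in Eln-low cells, and Mfap5; in the 46 and 39 cells with at least 2 of the rule's fibroblast genes at 100 CPM the markers summed to 14698 and 10667 CPM. None of the 13 was at 0 in any of these sums. Pdgfra, a defining fibroblast receptor, stood at 10.9 and 12.03 CPM in Eln-high cells, against 14.6 and 11.6 CPM in Eln-low cells, and at 494 and 334.4 CPM in those fibroblast-marked cells. Dpt stood at 30.4 and 0.571 CPM in Eln-high cells, against 0.576 and 0.697 CPM in Eln-low cells. A single cell of plate A held 55.9% of the Dcn counts of its Eln-high sum. Without any cell that had a fibroblast gene of the rule at 100 CPM, Col1a1 differed by 0.64, Col1a2 by 0.68, Col3a1 by 0.70, Lox by 1.21 and Fn1 by 0.75 on the log2 scale. With cells at 100 CPM of Pecam1 or Rgs5 left out as well, they differed by 0.47, 0.64, 0.66, 1.40 and 0.81. The bands were drawn anew among the cells kept. The first filter left 72 cells per group on plate A and 56 on plate B, and the second 38 and 26. Of those 38 and 26 Eln-high cells, 34 and 21 were Eln-high in the main comparison.

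Markers of small-vessel mural cells summed to 2924 and 2257 CPM in Eln-high cells, against 2555 and 2071 CPM in Eln-low cells. Rgs5 among them stood at 774 and 416 CPM in Eln-high cells, against 606 and 213.7 CPM in Eln-low cells (0.67 ± 0.18, unadjusted p = 0.00685), and the matrix differences without cells at 100 CPM of Rgs5 are those just given. Of the genes used elsewhere to divide smooth muscle cells, Vcam1 stood at 137.3 and 45.5 CPM in Eln-high cells, against 6.69 and 39.3 CPM in Eln-low cells, with 43.3% and 57.2% of the Eln-high counts in 1 cell of each plate. Fos stood at 1210 and 896 CPM in Eln-high cells, against 1002 and 739 CPM in Eln-low cells (unadjusted p = 0.11 in edgeR). P2rx1 stood at 56.3 and 80.2 CPM in Eln-high cells, against 42.7 and 42.9 CPM in Eln-low cells (unadjusted p = 0.132).

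Among the lists not yet described, the immediate early genes, which respond fast to stimulation, had a median of 0.23. At an unadjusted p under 0.05, 3 of 37 were higher and 0 lower, beside 3.96% and 2.68% of all genes. Of the 18 immediate early genes found in at least 50% of the cells, 11 were higher and 1 lower in both plates. Among all such genes these shares were 24.2% and 33.1%. The list of the insulin-like growth factor axis had a median of 0.21. At an unadjusted p under 0.05, 1 of its 14 genes was higher and 0 lower, beside 3.96% and 2.68% of all genes. Among 29 genes linked to modulated smooth muscle, 9 were higher and 2 lower at an unadjusted p under 0.05, Fn1 among the higher ones, with a median of 0.05. Vim, the filament protein vimentin, stood at 4163 and 3525 CPM in Eln-high cells, against 4334 and 3727 CPM in Eln-low cells (-0.04 ± 0.03). Mgp, an inhibitor of calcification, stood at 1875 and 1832 CPM in Eln-high cells, against 1876 and 1786 CPM in Eln-low cells (0.05 ± 0.04). Sost, sclerostin, stood at 1071 and 788 CPM in Eln-high cells, against 968 and 690 CPM in Eln-low cells (0.20 ± 0.07). Osr1, a mesenchymal transcription factor, stood at 430 and 573 CPM in Eln-high cells, against 369 and 411 CPM in Eln-low cells (0.38 ± 0.09, unadjusted p = 0.00439). Hox genes record position on the body axis. Of 15 tested, 0 were higher and 1 lower at an unadjusted p under 0.05, beside 3.96% and 2.68% of all genes. Hspb7, a small heat shock protein of muscle, stood at 780 and 1232 CPM in Eln-high cells, against 739 and 1113 CPM in Eln-low cells (0.14 ± 0.06). Galnt16, an enzyme that starts O-linked glycans, stood at 194.4 and 175.6 CPM in Eln-high cells, against 94.3 and 85.4 CPM in Eln-low cells (1.07 ± 0.16), and passed edgeR's test over the 4015 genes.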

How the data were processed

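The authors deposited raw counts for 46517 gene identifiers in 675 cells, 1 column per cell. Per the submitters' processing notes, bcl2fastq, Bowtie, Bowtie2, featureCounts and Subread were used with GRCm38 (mm10); no source used here gives versions or strand settings. Symbols and coordinates came from GENCODE M21 of GRCm38, and the 512 gene identifiers that lack a symbol carried 0.217% of all counts. Columns were checked for copies, and 0 pairs were identical.

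Counts of smooth muscle cells were summed per plate and Eln band (8 sums) and fitted with edgeR 4.0.16 (R 4.3.3, filterByExpr, TMM, quasi-likelihood test, plate as block, 3 residual degrees of freedom), contrasting Eln-high with Eln-low cells, with Benjamini-Hochberg adjustment over 16121 genes. The 8 genes of the rule stayed in the fit but were not counted. DESeq2 1.42.0 and limma 3.58.1 were alternatives, as were other splits, filters and depths; 14 alternatives were planned and 2 added after the data were seen. The plate is the mouse pool, so same-plate sums share mice; their plate differences correlated at 0.539 to 0.639 across 4020 genes. The 2 pools are the only replicates. With plate as block, p-values measure how far the band differences disagree between the plates, not the spread in level between the pools. The 1 SE given after ± is that of the log2 fold change; thinning drew 50000 counts per cell (seed 0), and scripts were tested on simulated data.

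The members, the 36 gene lists and the tests were chosen with earlier results of these data known. Named genes were members of the 2 elastic fibre lists with at least 10 CPM, for other lists up to 4 members past the threshold or the 2 with the highest mean CPM, genes that mark other groups of smooth muscle cells, and the 10 genes most and 5 least like Eln. Timp2, Ccn2, Sparcl1, Susd5, Crispld2, Sfrp2, Col6a1, Col4a1, Col4a2, Tns1, Hspg2, Pmepa1, Htra3, Galnt16, Chmp2b, Tnc, Pln, Acvrl1, Itgb5 and Itga9 were chosen after their values were seen.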

Additional observations from a re-analysis of the deposited data

How the results depend on the processing

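Over the planned and added alternatives, 1289 pairs of a gene with a value above and a setting were compared. Of these, 97 passed an adjusted p of 0.05 that the planned edgeR test did not, 27 changed sign and 1165 did neither. The 1165 include 70 and 66 pairs with 1 plate left out, where only direction was compared. As the planned test called 0 genes, a pair could leave its side of the threshold only by passing it. The number of genes called, 0 in the planned test, was 180 with DESeq2, 17 with limma on mean log2(CPM + 1), 11 with cells thinned to 50000 counts, 1 (Fn1) for the 10% with the most against the 10% with the least Eln and 28 over genes found in at least 50% of the cells. It stayed 0 without the plate as replicate block and in the other settings fitted with 2 plates. With 1 plate left out there was no test.

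Among genes found in at least 50% of the cells, the elastic fibre median was 0.39, against 0.06 for the middle bands, 0.20 for the upper over the lower 50% of cells, and 0.22 to 0.45 with 1 plate left out. For fibrillar collagens it was 0.36, against 0.12 for the middle bands, 0.22 for the upper over the lower 50%, 0.43 for the outer 10%, 0.26 within 5 strata of depth, 0.54 with limma, 0.24 after thinning, and 0.27 to 0.36 with 1 plate left out. For other collagens it was 0.44, against 0.22 for the middle bands, 0.68 for the outer 10%, 0.80 with limma, and 0.42 to 0.57 with 1 plate left out. The contractile median was 0.00, against -0.07 for the outer 10%, -0.05 within 5 strata of depth, -0.05 with limma, and -0.07 to 0.00 with 1 plate left out. The lysyl oxidase median ran between 0.16 and 0.69 with 1 plate left out.

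Sign changes between the middle bands were Acta2 -0.02, Acvrl1 -0.35, Chmp2b 0.39, Col6a1 -0.10, Cst3 0.04, Emilin1 -0.01, Fhl1 0.00, Fos -0.11, Gsn -0.04, Hspb8 0.02, Htra3 -0.22, Id3 0.09, Rps3 0.11, Sparcl1 0.04 and Vcam1 -0.44. Acta2 was -0.03 within 5 strata of depth, Mfap2 -0.12 and Sost -0.11 for the outer 10%, and Sost -0.02 without cells at 100 CPM of a fibroblast gene, Pecam1 or Rgs5. With 1 plate left out, Bgn ran between 0.00 and 0.07, Csrp2 between -0.18 and 0.01, Bmp1 between -0.05 and 0.41, Efemp2 between -0.42 and 0.03, Ltbp4 between -0.14 and 0.45, Mgp between 0.00 and 0.04, Npnt between -0.09 and 0.28 and Pcolce2 between -0.07 and 0.95. The cause of these changes was not tested. Precision is limited by having 2 mouse pools.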
